A study of Mus musculus with 6 samples.

Results

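Receptor-mediated endocytosis was described here through 5 genes, Lrp2, Cubn, Amn, Dab2 and Clcn5, chosen by symbol among the 31053 genes of the kidney count table. The levels of these genes were followed across 3 droplet libraries of mouse kidney and across the segments of the nephron, the tubule that forms urine. The kidneys were from male mice, 12 weeks old and of the inbred C57BL/6 strain, and no transgene or drug treatment is stated for any kidney group. A further 3 libraries were of mammary tumors from female MMTV-PyMT mice, 10 weeks old, which carry a transgene for the polyoma middle T antigen. The minced tissue was digested with collagenase, either by the conventional route for 60 min (control) or in a microfluidic platform from which cells were collected at a 15 min and a 60 min interval. The intervals were successive: cells were eluted at 15 min, and the remaining tissue was processed on to 60 min. The 60 min platform library thus holds cells released after the 15 min collection and is not a whole 60 min digest. The authors surmise that most proximal tubule cells had already left at 15 min. Dead cells were removed by sorting before loading. There was 1 library per condition, so differences between conditions could not be set against replicate error and were not tested. By the study's reporting statement, control and device conditions of a replicate used tissue of a common mouse, so the kidney libraries cannot be taken as separate animals. All intervals given are 95% intervals (exact Poisson for levels, exact conditional binomial for ratios, exact binomial for shares) and cover counting error only.

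The proximal tubule takes up nearly all protein that passes the glomerular filter. Megalin, encoded by Lrp2, is a very large receptor of the LDL receptor family. Cubilin, encoded by Cubn, is a peripheral membrane receptor that binds albumin, transferrin and the intrinsic factor-vitamin complex, and amnionless, encoded by Amn, anchors cubilin and carries it to the apical surface. Dab2 is the clathrin adaptor that binds the cytoplasmic tail of megalin. Clcn5 encodes a chloride/proton exchanger of endosomes, the gene mutated in Dent disease, a disorder with loss of low molecular weight protein into the urine.

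In the GRCm38 mouse genome (mm10, the build used by the authors), Lrp2 (ENSMUSG00000027070) lies at chr2:69424340-69586065 on the minus strand and spans 161726 bases. Cubn (ENSMUSG00000026726) lies on the same chromosome and strand at chr2:13276338-13491813. Amn (ENSMUSG00000021278) is the most compact of the genes, with 5332 bases at chr12:111271095-111276426 on the plus strand. Dab2 (ENSMUSG00000022150) lies at chr15:6299788-6440712 on the plus strand, and Clcn5 (ENSMUSG00000004317) at chrX:7153810-7319358 on the minus strand. Cubn overlaps the opposite-strand transcript Gm13270, Dab2 overlaps Gm16311 and Gm18888 on the opposite strand, and 5 miRNA genes lie within Clcn5 on its own strand.

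The sequence upstream of Lrp2, Cubn and Amn is shown because 80.9 to 97.7% of their UMIs, by gene and library, were in the proximal tubule. For Dab2 and Clcn5, whose windows are not printed, the share was lower, at 51.2 to 94.3%. The windows were taken from RefSeq promoter entries of GRCm38.p6 with annotated exon bases trimmed off, and are printed 5′ to 3′ on the strand of the gene. Capitals mark matches, on either strand, to CAAAGT (a half-site of the hepatocyte nuclear factor HNF4), GTTAAT (a half-site of HNF1), GGGCGG (a GC box) and CACGTG (an E-box).
Lrp2, chr2:69586066-69586279, minus strand: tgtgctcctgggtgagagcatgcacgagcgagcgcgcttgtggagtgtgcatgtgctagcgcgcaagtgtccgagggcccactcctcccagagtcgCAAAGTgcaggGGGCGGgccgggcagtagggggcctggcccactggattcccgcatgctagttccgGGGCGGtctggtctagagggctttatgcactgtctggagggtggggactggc
Cubn, chr2:13491877-13492126, minus strand: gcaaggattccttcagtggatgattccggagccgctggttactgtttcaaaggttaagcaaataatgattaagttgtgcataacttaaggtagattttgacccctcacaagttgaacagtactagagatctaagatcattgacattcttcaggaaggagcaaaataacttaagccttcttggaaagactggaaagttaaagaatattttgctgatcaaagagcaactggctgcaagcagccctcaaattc
Amn, chr12:111270846-111271094, plus strand: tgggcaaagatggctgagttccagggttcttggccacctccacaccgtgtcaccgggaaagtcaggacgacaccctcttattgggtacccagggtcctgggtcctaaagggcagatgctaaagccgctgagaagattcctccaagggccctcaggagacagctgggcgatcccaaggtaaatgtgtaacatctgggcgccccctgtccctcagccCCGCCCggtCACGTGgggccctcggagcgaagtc
The Lrp2 window held CAAAGT 154 bases upstream of the RefSeq transcript start and GGGCGG at 143 and 88 bases upstream. The Amn window held GGGCGG on the opposite strand 35 bases and CACGTG 26 bases upstream. No match fell in the Cubn window, whose GC content was 39.6% against 65.9% for Lrp2 and 61.0% for Amn. The RefSeq start of Cubn, at base 13491876, lies outside the annotated span of the gene given above. The sequence after this start was not found in an annotated Cubn transcript, which limits what its window shows. Dab2 and Clcn5 each have a pair of RefSeq start windows, and 3′ counts do not tell which start was used. In these windows CAAAGT lay 237 bases upstream of a Dab2 start and 212 bases upstream of a Clcn5 start. GGGCGG lay 114 bases upstream of the other Clcn5 start, so these motifs were not particular to the receptor genes. Over 32851 promoter windows of 250 bases each, 12.6% held CAAAGT, 6.43% GTTAAT, 32.7% GGGCGG and 6.02% CACGTG.

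After removal of cells with under 200 or over 3000 genes or over 50% mitochondrial UMIs (unique molecular identifiers, the counts of distinct captured RNA molecules), 24212 of 34034 deposited cells were kept, with 5886 to 9936 per library and 33644880 to 61434200 UMIs. Cells were assigned to classes by gates, that is, by the list of marker genes with the highest score in the cell, and the 5 endocytosis genes were in none of the lists. In the proximal tubule gate were 2985, 7091 and 2638 cells of the control, 15 min and 60 min libraries, with a median depth of 5523, 7183 and 5871.5 UMIs. The gate was set by its markers, so their presence is no separate evidence of its identity. Among them Slc34a1, the sodium/phosphate cotransporter of this segment, was at 3927 CPM over all cells of the gate. CPM are the UMIs of a gene scaled to the same total in every library and gate. The libraries differed in their mitochondrial share, with gate medians of 10.6% (control), 21.6% (15 min) and 15.5% (60 min). The libraries shared 19 to 44 cell barcodes pairwise, under 0.6% of either library.

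Summed over all kept cells, Lrp2 stood at 292 CPM (286 to 298) in the control, 664 CPM (658 to 671) at 15 min and 285 CPM (280 to 289) at 60 min. Cubn followed the same order, with 39.0, 84.4 and 36.6 CPM in the control, 15 min and 60 min libraries, and so did Amn, with 78.5, 218 and 76.5 CPM. The 15 min library was thus the highest for all 3 components of the megalin-cubilin-amnionless receptor complex. Clcn5 was at 20.8 CPM in the control, 37.0 CPM at 15 min and 24.2 CPM at 60 min. Dab2 differed little between libraries over the kept cells, at 218, 212 and 210 CPM. Over all deposited cells it was at 233, 288 and 248 CPM, so this likeness depended on the cell limits. In such sums more proximal tubule cells and more RNA per cell cannot be told apart, and the gate held 50.7% of the control cells, 84.5% at 15 min and 26.5% at 60 min.

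The share of each gene's UMIs that came from the proximal tubule gate separated the receptors from the adaptor and the exchanger. For Lrp2 the control share of 92.7% compared with 97.3% at 15 min and 82.6% at 60 min. For Cubn and Amn it lay between 80.9 and 97.7% in the 3 libraries. For Dab2 it was 69.6, 94.3 and 51.2% in the control, 15 min and 60 min libraries, and for Clcn5 74.5, 93.5 and 57.8%. In each library the shares of Dab2 and Clcn5 lay below those of all 3 receptor genes, without overlap of the intervals.

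Within the proximal tubule gate, the receptor genes and Clcn5 were higher in both platform intervals than in the control, and Dab2 was lower at 15 min and higher at 60 min. Lrp2 was at 493 CPM (483 to 503) in the control, 719 CPM (712 to 726) at 15 min and 729 CPM (717 to 742) at 60 min. Its log2 ratio over the control was 0.55 (0.51 to 0.58) at 15 min and 0.57 (0.53 to 0.61) at 60 min. The megalin transcript thus stood at nearly the same level in both platform intervals, with a log2 ratio of 15 min over 60 min of -0.02 (-0.05 to 0.01).

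Cubn was at 65.9 CPM in the control, 90.8 CPM at 15 min and 91.9 CPM at 60 min, which gave log2 ratios of 0.46 (0.37 to 0.55) and 0.48 (0.37 to 0.59). Amn, the partner that anchors cubilin, was at 134 CPM in the control, 237 CPM at 15 min and 199 CPM at 60 min. Its log2 ratio of 0.82 (0.76 to 0.88) at 15 min was the largest among the 5 genes, against 0.57 (0.49 to 0.64) at 60 min. Between the intervals Amn was 0.25 (0.20 to 0.31) higher at 15 min on the log2 scale, a difference beyond counting error that Lrp2 and Cubn did not show.

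Dab2 was at 276 CPM (268 to 283) in the control, 223 CPM (219 to 227) at 15 min and 335 CPM (326 to 344) at 60 min. Its log2 ratio was -0.31 (-0.36 to -0.26) at 15 min and 0.28 (0.23 to 0.34) at 60 min, so the adaptor had the control between the platform intervals. Clcn5 was at 28.2 CPM in the control, 38.5 CPM at 15 min and 43.4 CPM at 60 min, with log2 ratios of 0.45 (0.31 to 0.59) and 0.62 (0.46 to 0.78). All ratios at 15 and 60 min share the same control library.

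None of the 5 genes passed 2-fold in either ratio. Among all genes with at least 10 CPM in either library, 0.492% passed 2-fold at 15 min and 1.52% at 60 min. At 1.5-fold, Amn alone passed at 15 min, where 6.92% of all genes did, and Clcn5 alone at 60 min, where 6.16% did. The median log2 ratio of the 5 genes was 0.46 at 15 min and 0.57 at 60 min, beside -0.24 and 0.01 over the 6096 and 6397 genes compared. In the order of all genes at 15 min, Amn stood at percentile 99.5, Lrp2 at 94.5, Cubn at 92.0, Clcn5 at 91.5 and Dab2 at 38.0, so Dab2 lay just below the middle. Markers of other cell types were also found in the gate. The 5 markers of the thick ascending limb summed to 418 CPM in the control, 404 CPM at 15 min and 386 CPM at 60 min, above the level of Dab2 in each library. Such a sum does not tell RNA of other cells from a marker that proximal tubule cells may make themselves. The 6 distal convoluted and connecting tubule markers summed to 61.9, 28.0 and 75.5 CPM, the 5 collecting duct markers to 25.2, 24.6 and 29.3 CPM, the 6 macrophage markers to 14.0, 4.26 and 23.4 CPM and the 6 endothelial markers to 5.19, 3.82 and 22.4 CPM. No macrophage or endothelial marker was at 0, and no other list summed to over 3.80 CPM. The distal, collecting duct, macrophage and endothelial sums order the libraries as Dab2 does, and their part in the Dab2 ratios was not tested.

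**Figure D1:**
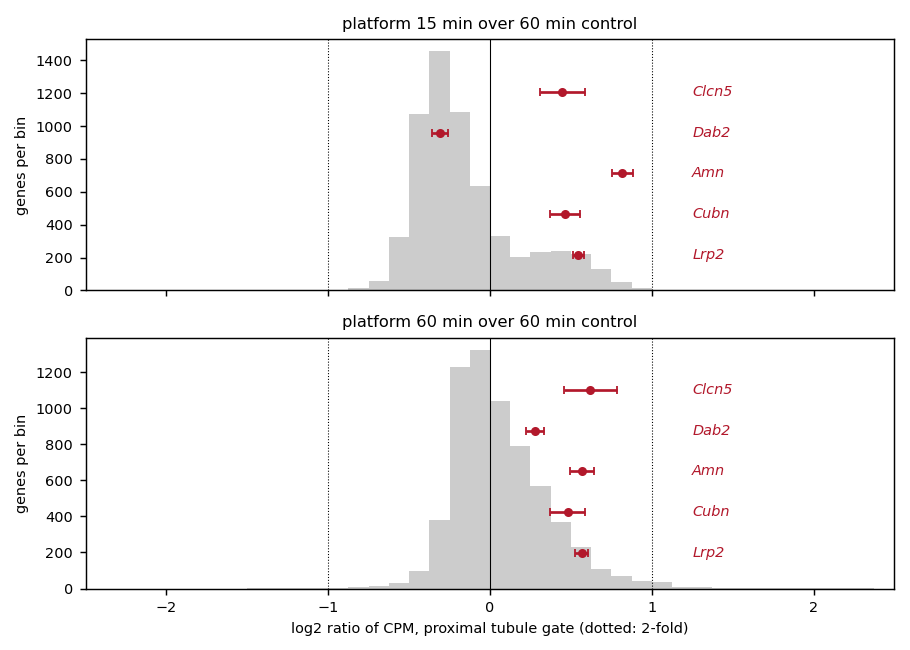
Log2 ratio of CPM over the 60 min control in the proximal tubule gate for each endocytosis gene at the 15 min and 60 min platform intervals, drawn as red points with 95% intervals for counting error over a histogram (grey) of all genes compared; point height has no meaning and dotted lines mark 2-fold. Lrp2, Cubn, Amn and Clcn5 lie between 0.45 and 0.82 in both intervals, and Dab2 lies at -0.31 at 15 min and 0.28 at 60 min.

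Along the proximal tubule, segment S1 is the early convoluted part, followed by S2 and the straight S3. The gates for S1 held 651, 2017 and 949 cells in the control, 15 min and 60 min libraries, those for S2 667, 2021 and 503 cells and those for S3 354, 1069 and 340 cells. The remaining 4143 of 12714 proximal tubule cells were not assigned to a segment, and 20.7% of the proximal tubule cells lay just past the threshold, with a lead of 0.25 to 0.5 in segment score. The segments grade into each other, and in the S3 gate the S2 markers (median 13.2 UMIs per 10000) were as abundant as the S3 markers (12.4 UMIs per 10000).

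Dab2 had the steepest gradient of the 5 genes, with its highest level in S1. It was at 405 CPM in S1, 231 CPM in S2 and 190 CPM in S3 of the control, at 358, 179 and 142 CPM at 15 min, and at 453, 234 and 183 CPM at 60 min. S1 lay above S2 and S3 in every library, without overlap between S1 and the other segments over the libraries. The log2 ratio of S1 over S3 was 1.09 (0.95 to 1.24) in the control, 1.33 (1.24 to 1.42) at 15 min and 1.30 (1.16 to 1.45) at 60 min. Dab2 was the only one of the 5 genes that was 2-fold higher in S1, beside 10.3% of all genes in the control library, 15.5% at 15 min and 13.9% at 60 min. With each cell weighted equally, the control ratio of Dab2 was 0.99, just under 2-fold.

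Lrp2 was at 651, 637 and 412 CPM in S1, S2 and S3 of the control, at 931, 694 and 587 CPM at 15 min, and at 902, 736 and 669 CPM at 60 min. S1 was the highest and S3 the lowest in each library, but the ranges of neighbouring segments over the libraries overlapped, and in the control S1 and S2 did not differ beyond counting error. The log2 ratio of S1 over S3 was 0.66 (0.56 to 0.76), 0.66 (0.62 to 0.71) and 0.43 (0.35 to 0.51). Cubn was at 99.6, 136 and 124 CPM in S1 of the control, 15 min and 60 min libraries, above its 64.3 to 89.0 CPM in S2 and S3, whose ranges overlapped. Its log2 ratio of S1 over S3 was 0.63 (0.37 to 0.90), 0.82 (0.70 to 0.95) and 0.48 (0.26 to 0.69).

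Amn did not share this gradient. It was at 151, 169 and 150 CPM in S1, S2 and S3 of the control, at 260, 249 and 218 CPM at 15 min, and at 207, 234 and 213 CPM at 60 min. The log2 ratio of S1 over S3 was 0.00 (-0.18 to 0.19) in the control, 0.25 (0.17 to 0.33) at 15 min and -0.04 (-0.18 to 0.10) at 60 min, with the ranges of all segments overlapping. With Leiden clusters in place of the gates the values were -0.46, 0.09 and -0.27, and with a mitochondrial limit of 20% they were -0.12, -0.33 and -0.28, so the direction at 15 min turned under the lower limit. Clcn5 was at 37.2, 50.9 and 61.0 CPM in S1 of the control, 15 min and 60 min libraries and at 24.6, 28.3 and 36.8 CPM in S3. Its log2 ratio of S1 over S3 was 0.60 (0.18 to 1.03), 0.84 (0.64 to 1.05) and 0.73 (0.41 to 1.07).

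The median log2 ratio of S1 over S3 of the 5 genes was 0.63, 0.82 and 0.48 in the control, 15 min and 60 min libraries, beside 0.15, 0.32 and 0.29 over all genes compared. In the control the median was 0.30 with Leiden clusters and 0.33 with a mitochondrial limit of 20%. Of the 5 genes, Dab2 stood at percentile 91.2, 90.9 and 91.6 of all genes in the 3 libraries, and Amn at percentile 39.7, 45.1 and 29.4. Lrp2 stood at percentile 80.7, 71.8 and 60.1, Cubn at 79.3, 78.7 and 63.3 and Clcn5 at 77.9, 79.4 and 77.0. The receptor gradients at 60 min were thus not far from the middle of all genes.

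**Figure D2:**
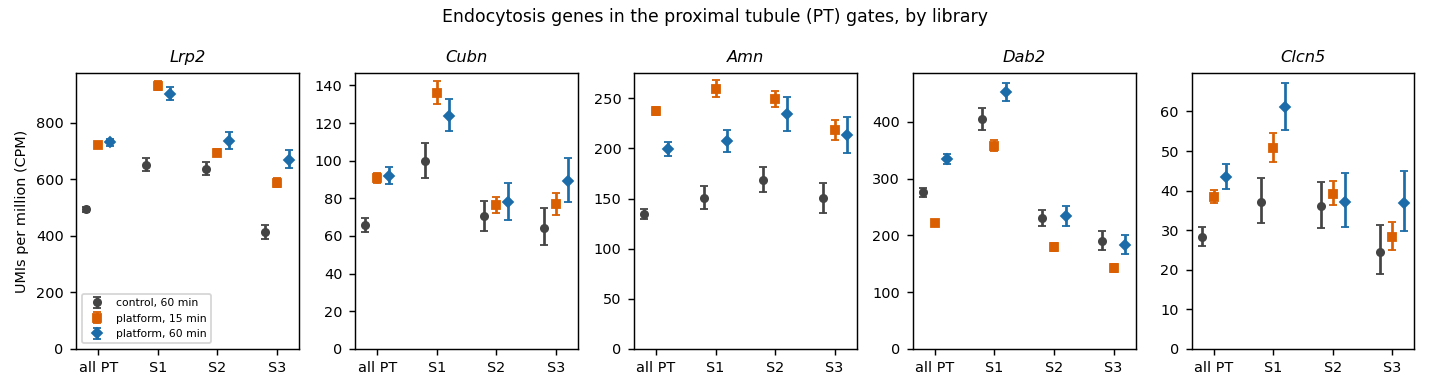
CPM of each endocytosis gene in the S1, S2 and S3 gates of the 3 kidney libraries, with exact Poisson 95% intervals. Dab2 falls from 358 to 453 CPM in S1 to 142 to 190 CPM in S3, Lrp2, Cubn and Clcn5 fall less, and Amn has no common order of segments in the 3 libraries.

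The comparison with the control also held within segments for Amn. Its log2 ratio was 0.78 in S1, 0.56 in S2 and 0.54 in S3 at 15 min, and 0.46, 0.47 and 0.50 at 60 min, with each interval above 0. For Lrp2 the ratios were 0.51, 0.12 and 0.51 at 15 min and 0.47, 0.21 and 0.70 at 60 min, again with each interval above 0 and with the smallest value in S2. The S2 ratios of Cubn, 0.12 (-0.06 to 0.30) at 15 min and 0.14 (-0.10 to 0.39) at 60 min, and of Clcn5, 0.12 (-0.13 to 0.38) and 0.05 (-0.31 to 0.40), were within counting error, as was the S3 ratio of Clcn5 at 15 min, 0.21 (-0.19 to 0.62). In the cells without a segment Amn passed 2-fold at 15 min, with a log2 ratio of 1.16 (1.04 to 1.28), and Lrp2 was at 0.91 (0.85 to 0.98). The share of all genes past 2-fold is not given for these cells. The adaptor Dab2 was lower at 15 min in each segment, with log2 ratios of -0.18, -0.36 and -0.42 in S1, S2 and S3. At 60 min it was 0.16 (0.08 to 0.25) in S1, 0.02 (-0.12 to 0.16) in S2 and -0.05 (-0.23 to 0.13) in S3, so the higher Dab2 level at 60 min was beyond counting error in S1 and in the cells without a segment (0.32, 0.22 to 0.42) but not in S2 or S3. The medians over all genes compared in S1, S2 and S3 were -0.12, -0.20 and -0.28 at 15 min. At 60 min these medians were 0.04, 0.01 and -0.07. The typical gene was thus also below the control at 15 min in each segment.

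Levels within the gate moved with the mitochondrial share of the cell, and this axis was followed in 4 bins chosen after the data had been seen. In the control, Lrp2 was at 197 CPM in cells with 0 to 10% mitochondrial UMIs, 560 CPM at 10 to 20%, 826 CPM at 20 to 30% and 952 CPM at 30 to 50%. From the lowest to the highest bin Lrp2 was 4.84-fold higher in the control, 2.45-fold at 15 min and 3.33-fold at 60 min, and Cubn 4.88-fold, 2.42-fold and 3.49-fold. Amn was 2.57 to 2.74-fold and Clcn5 2.53 to 2.98-fold higher in the 3 libraries. Dab2 went the other way, with 0.815-fold in the control (0.736 to 0.900), 0.505-fold at 15 min and 0.593-fold at 60 min. The receptors and the adaptor that binds them thus had opposite gradients over the same cells. When mitochondrial UMIs were left out of the denominator, control Dab2 rose from 301 to 376 CPM between the end bins and Lrp2 from 205 to 1519 CPM, so the control direction of Dab2 depended on that choice.

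Because the libraries differed in mitochondrial share, the ratios were repeated within the bins. Amn was higher than in the control in all 4 bins, with log2 ratios of 0.43, 0.59, 0.33 and 0.49 at 15 min and of 0.49, 0.48, 0.33 and 0.58 at 60 min, from the lowest to the highest bin. Lrp2 at 15 min gave 1.01, 0.13, -0.14 and 0.03, and Cubn 0.79, 0.29, -0.18 and -0.23, so the higher 15 min level of both receptors was found in cells with under 20% mitochondrial UMIs. In the lowest bin Lrp2 was thus past 2-fold, beside a median of 0.11 over the 6617 genes compared there. The share of all genes past 2-fold is not given for this bin. Clcn5 at 15 min gave 0.37, 0.17, -0.09 and 0.14. At 60 min the ratios were above 0 in all bins for all 5 genes, with 0.92, 0.41, 0.14 and 0.38 for Lrp2 and 0.50, 0.25, 0.12 and 0.05 for Dab2. Dab2 at 15 min was 0.37 in the lowest bin and -0.25, -0.42 and -0.31 in the others. The part of the mitochondrial share in the whole-gate ratios was not tested beyond these values.

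**Figure D3:**
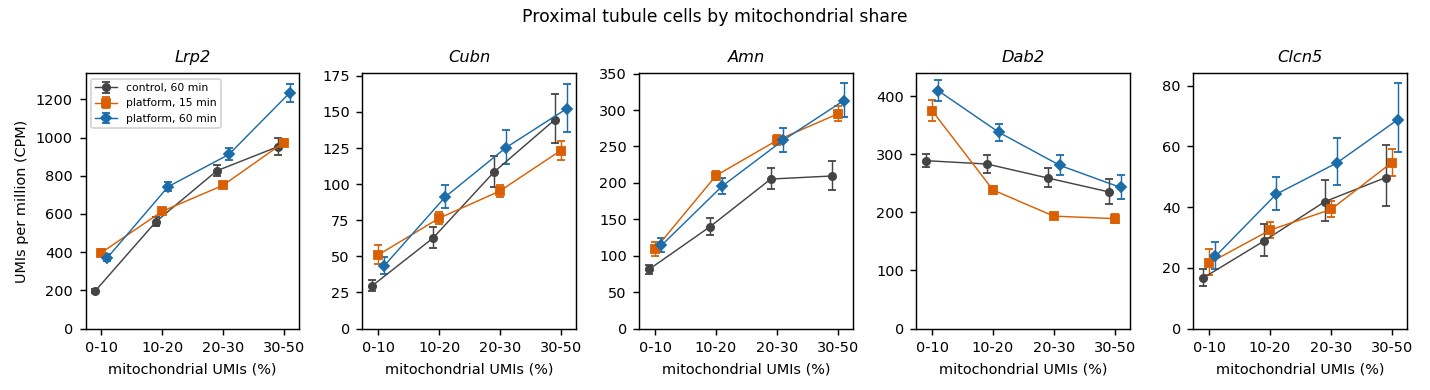
CPM of each endocytosis gene in proximal tubule cells by bin of mitochondrial UMI share (0 to 10, 10 to 20, 20 to 30 and 30 to 50%) in the 3 kidney libraries, with exact Poisson 95% intervals. Lrp2, Cubn, Amn and Clcn5 are higher in the highest bin than in the lowest in each library, and Dab2 is lower.

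Outside the proximal tubule, Lrp2, Cubn and Amn stood near the levels of other proximal tubule genes, whereas Dab2 and Clcn5 stood far above those in some classes. In droplet data RNA released from broken cells adds UMIs of abundant genes to every cell. Each level was therefore given as a ratio to the proximal tubule gate. It was set beside the same ratio of 6 proximal tubule genes (Kap, Miox, Gpx3, Fxyd2, Slc34a1 and Fbp1). All of these but Fxyd2 were also markers that defined the gate. Gating on them can lower their ratios outside it, and the size of this effect was not tested. Over all libraries, Lrp2 was above the highest of these reference genes in 0 of 13 other gates, Cubn in 3 and Amn in 1, against 7 for Dab2 and 11 for Clcn5. The whole interval lay above the highest reference in 0 gates for each of Lrp2, Cubn and Amn, in 5 for Dab2 and in 8 for Clcn5. In the thick ascending limb, distal convoluted, intercalated and thin limb gates the highest reference was Fxyd2, at ratios of 0.888, 1.02, 1.06 and 0.517. The distal nephron also makes Fxyd2, so a level that does not pass it there says little about free RNA. In the distal convoluted and connecting tubule gate the next reference was Gpx3 at 0.258, and Lrp2 was at 204 CPM beside 675 CPM in the proximal tubule gate. Within single libraries Lrp2 was above the highest reference in 4, Cubn in 8 and Amn in 5 of 34 values, again with 0 whole intervals above it. Among these was Amn in the collecting duct gate of the control, at a ratio of 0.334 (0.216 to 0.495) beside a highest reference of 0.229. The highest Lrp2 and Amn levels outside the proximal tubule were in the same gate at 15 min, with Lrp2 at 520 CPM and Amn at 236 CPM in 22 cells, where the references had a median ratio of 0.661. In macrophages these genes stood at a median ratio of 0.0273, with 0.0561 as the highest. Lrp2 was at a ratio of 0.0396, Cubn at 0.0366 and Amn at 0.0277 there, all within the range of the reference genes. In the distal convoluted and connecting tubule gate Lrp2 was at 204 CPM, but at 21.6 CPM in the 400 of 484 cells with under 50 proximal tubule marker UMIs per 10000.

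Dab2 was at 293 CPM (285 to 301) in macrophages over the 3 libraries, a ratio of 1.15 (1.12 to 1.19) to the proximal tubule gate and 42.2 times the reference median. By library it was at 248 CPM in the control, 258 CPM at 15 min and 324 CPM at 60 min, on 879, 151 and 1584 cells. The level was the same, 293 CPM, in the 2545 of 2614 macrophages with under 50 proximal tubule marker UMIs per 10000. Where the gates kept only cells with up to 20% mitochondrial UMIs, the macrophage and proximal tubule levels differed by a log2 ratio of 0.00, so the order of these classes depended on the limit.

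Endothelial cells held Dab2 at 83.1, 88.3 and 82.6 CPM in the control, 15 min and 60 min libraries, a ratio of 0.328 (0.309 to 0.348) beside a highest reference ratio of 0.0648. Dendritic cells held 85.1 CPM over all libraries. T lymphocytes held 13.4 CPM, a ratio of 0.0526 that lay within the reference range of up to 0.0590. In the order of gates by their median over libraries, Dab2 was highest in S1, with 358 to 453 CPM and no overlap with the next gate. Macrophages (248 to 324 CPM) and intercalated cells (242 to 249 CPM) came next with overlapping ranges, above S2 (179 to 234 CPM) and S3 (142 to 190 CPM), which also overlapped.

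At the limits used here, Clcn5 was highest outside the proximal tubule, in intercalated cells, the acid- and base-secreting cells of the collecting duct, which are known to carry this exchanger. It was at 109 CPM (74.1 to 155) in the control, 156 CPM (95.5 to 242) at 15 min and 104 CPM (71.5 to 146) at 60 min, on 52, 30 and 58 cells. No library overlapped the range of the next gate, S1, at 37.2 to 61.0 CPM. Over the 140 cells the level was 115 CPM from 84 UMIs, a ratio of 3.09 (2.45 to 3.83) to the proximal tubule, where the reference genes had a median of 0.0463. The highest of the references was Fxyd2 at 1.06, a subunit of the sodium pump that the distal nephron also makes, and the next was Gpx3 at 0.228. Lrp2, Cubn and Amn had 11, 3 and 4 UMIs in the same cells. In the thick ascending limb, Clcn5 was at 32.3 CPM, a ratio of 0.866, and at 28.6 CPM in the 553 of 653 cells with few proximal tubule UMIs, while Lrp2 went from 111 to 16.2 CPM with the same choice.

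The Clcn5 level was not even over the intercalated cells. The 66 cells with over 20% mitochondrial UMIs held 184 CPM (144 to 231), and the 74 cells up to 20% held 35.5 CPM (18.3 to 62.0). Cells with more Slc26a4 than Slc4a1 UMIs, the chloride exchangers of base- and acid-secreting intercalated cells, held 133 CPM on 59 cells, and those with more Slc4a1 held 176 CPM (120 to 248) on 39 cells. In the 42 cells with neither in excess, which had a median depth of 2453 UMIs, 1 UMI of Clcn5 was found. Dab2 had the opposite order by mitochondrial share, with 320 CPM up to 20% and 184 CPM over it. Like Clcn5 it was higher in the Slc4a1 than in the Slc26a4 cells, at 340 against 152 CPM, but it was also high in the remaining cells, at 363 CPM. These splits were made after the data had been seen. With a mitochondrial limit of 20% for all classes, the log2 ratio of Clcn5 in intercalated over proximal tubule cells fell to 0.29, against 1.63 as reported and 2.31 without upper limits. Under that limit Clcn5 was at 37.8 CPM (34.5 to 41.4) in S1 and 35.0 CPM (18.1 to 61.1) in intercalated cells, so intercalated cells no longer had the highest level.

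**Figure D4:**
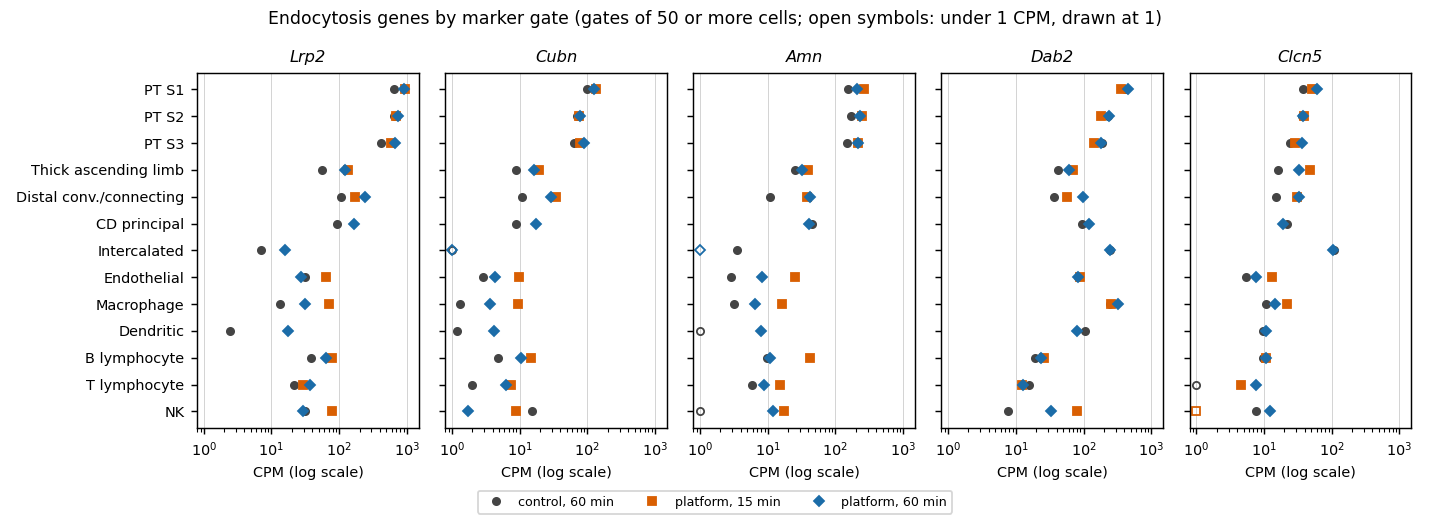
CPM of each endocytosis gene (log axis) in the marker gates of at least 50 cells over the 3 kidney libraries, 1 symbol per library, with open symbols for levels under 1 CPM drawn at 1. Lrp2, Cubn and Amn are highest in the proximal tubule gates, Dab2 is also high in macrophages and intercalated cells, and Clcn5 is highest in intercalated cells, an order that does not hold with a mitochondrial limit of 20%.

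Per cell, detection was compared on cells thinned to 1000 UMIs. Lrp2 was found in 42.8% of 12313 proximal tubule cells, Dab2 in 21.8%, Amn in 17.6%, Cubn in 8.11% and Clcn5 in 3.75%, and 401 shallower cells were left out. In T lymphocytes, which should lack the receptor transcripts, the shares were 2.81% for Lrp2, 1.20% for Dab2, 0.535% each for Amn and Cubn and 0.668% for Clcn5, on 748 cells with 7 left out. The median depth before thinning was 6593 UMIs in the proximal tubule gate and 5242 UMIs in T lymphocytes. All 5 shares in the proximal tubule lay above those in T lymphocytes without overlap of the intervals. Without thinning they were 82.4, 70.0, 62.0, 37.8 and 20.1% in the proximal tubule in the same order of genes.

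By library, the thinned share of Lrp2 went from 31.3% of control cells to 46.4% (15 min) and 45.8% (60 min), and that of Dab2 22.2, 19.5 and 27.8%. Amn was found in 11.7, 20.1 and 17.3% of the cells. These shares order the libraries as the CPM of each gene does, apart from Lrp2, whose intervals at 15 and 60 min overlap. Dab2 was found in 25.4% of 2566 macrophages, a share above that in the proximal tubule, with intervals of 23.7 to 27.1% and 21.0 to 22.5%. Clcn5 was found in 8 of 116 intercalated cells, or 6.90%.

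Detection of several of the genes in 1 cell was limited by depth. In full-depth proximal tubule cells, 6.76% held UMIs of all 5 genes, 59.2% of at least 3, and 4.85% of none. Cubn and Amn, whose proteins act as a unit, were both found in 27.8% of the cells, and Lrp2, Cubn and Amn together in 26.8%. After thinning, none of the 5 genes was found in 46.1% of control cells (44.2 to 48.0%), 31.5% of cells at 15 min (30.4 to 32.6%) and 30.1% at 60 min (28.3 to 31.9%), so fewer control cells held any of them at matched depth. A cell without a UMI at this depth cannot be read as a cell without the transcript.

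The other genes of the pathway were counted from a list of 41, of which 36 reached 10 CPM in either library of both ratios. None passed 2-fold at 15 or 60 min, beside 0.492% and 1.52% of all genes. All 6 lysosome genes were above the control in both intervals, with a median log2 ratio of 0.58 at 15 min and 0.41 at 60 min. Among them Ctsd, the aspartic protease cathepsin D, gave 0.72 and 0.46, and the lysosomal membrane protein Lamp1 0.52 and 0.33. The 3 other receptors compared were also above 0 in both intervals. Folr1, the folate receptor, gave 0.54 at 15 min and 0.21 at 60 min, Fcgrt, the receptor that recycles IgG and albumin, 0.56 and 0.15, and Tfrc, the transferrin receptor, 0.52 and 0.32.

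Of the clathrin coat and scission genes, 9 of 11 were below 0 at 15 min, with a median log2 ratio of -0.33. This was close to the median of -0.24 over all genes, which 4 of the 11 exceeded. The upper quartile over all genes was -0.03, so most of all genes compared also lay below 0 at 15 min. Clta, a clathrin light chain, gave -0.43 and Ap2a2, a subunit of the AP-2 adaptor complex, also -0.43, while Myo6, the motor that moves endocytic vesicles, gave 0.18. At 60 min 5 of these genes were above and 6 below 0, with a median of -0.04. Dab2, which links receptors to this coat, had a 15 min ratio of -0.31, within the range of the coat genes. Of the 12 endosome genes compared, 10 were below 0 at 15 min but 10 also above the median of all genes, with Rab7, the late endosome GTPase, at -0.49 and Atp6v0a2, a proton pump subunit, at 0.55. Among the adaptors and chaperones, Lrpap1, the chaperone that keeps megalin from binding ligands during folding, gave 0.67 at 15 min and 0.26 at 60 min, and the other 3 compared lay between -0.20 and -0.12 at 15 min.

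Relatives of the receptors and of the exchanger were mostly too low to compare. In the LDL receptor family 4 of 11 reached 10 CPM, all above 0 in both intervals, with Sorl1 at 0.68 and 0.79. In the CLC family 3 of 8 did, with Clcn4 and Clcn3, the close relatives of Clcn5, at 0.81 and 0.69 and at 0.49 and 0.48. Dab1, the other Disabled gene, stood at 1.66 to 2.54 CPM and was not compared. In 10 of the 41 pathway genes the highest level over all gates was in a proximal tubule segment, among them Folr1 (548 CPM, S2) and Lgmn (578 CPM, S1), a lysosomal protease.

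**Figure D5:**
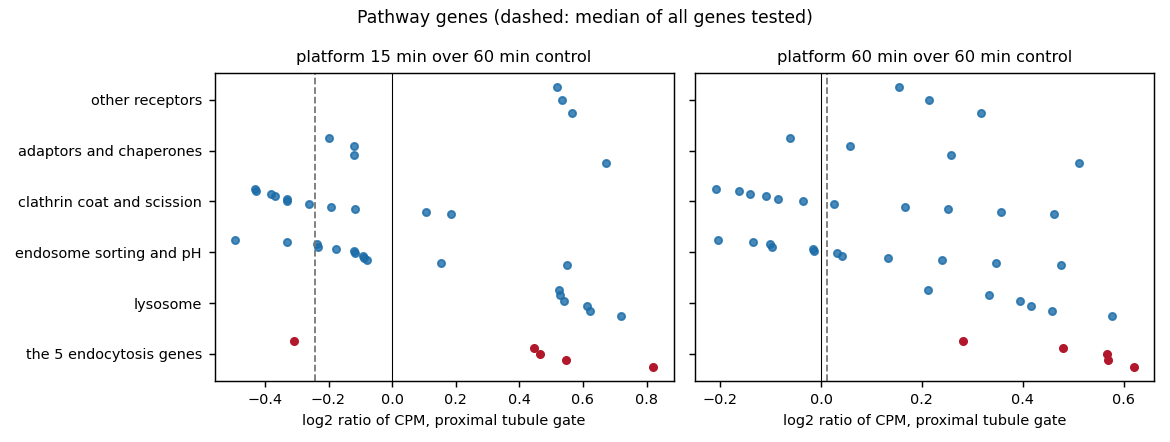
Log2 ratio over the 60 min control in the proximal tubule gate for the pathway genes compared, by group, at the 15 min and 60 min platform intervals, with no gene past 2-fold in either. The 6 lysosome genes lie above 0 in both intervals (0.52 to 0.72 at 15 min). At 15 min 9 of 11 clathrin coat and scission genes lie below 0, as do most of all genes compared (median -0.24, upper quartile -0.03).

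The genes most like each of the 5 were found by Pearson's r of log2(CPM + 10) over 37 points, each a gate in a library, among 7171 genes. These points share libraries and free RNA, so r is a description. The order for Lrp2 began with Slc4a4, the basolateral bicarbonate cotransporter of the proximal tubule (0.974), followed by Spink1, Slc34a1, Cubn (0.968) and Cldn2. For Cubn it began with Lrp2, followed by Acsm1, Cldn2, Abcc2 and Tinag, and for Amn with Slc34a1 (0.978), followed by Tmem174, Tmem27, Spink1 and Acsm2. Slc34a1 was also a marker that defined the gate. Dab2 was most like Ftl1, the ferritin light chain (0.860), then Atox1, Nadk, the lysosomal Lamp2 and Mfsd1. Clcn5 was most like Atp6v0a4 (0.880) and, in the fourth place, Atp6v1e1, subunits of the proton pump, with Rab17, Aldh1l1 and Fuom between and after them. With Spearman's rho, 3, 1, 2, 4 and 0 of the 5 leading genes were the same for Lrp2, Cubn, Amn, Dab2 and Clcn5. Between members, r was 0.948 to 0.968 among Lrp2, Cubn and Amn, 0.658 between Dab2 and Clcn5, and 0.467 to 0.497 between either of these and the receptors.

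Mammary tumors of 10-week-old female MMTV-PyMT mice, in which the mammary tumor virus promoter drives the polyoma middle T antigen, were processed under the same 3 conditions and served as a tissue without nephron. The tumor levels were summed over all deposited cells, without the gene and mitochondrial limits used for kidney cells. Lrp2 had 2 to 4 UMIs in each of the tumor libraries and Cubn 4 to 14. Amn stood at 0.553 CPM in the control, 0.356 CPM at 15 min and 2.16 CPM at 60 min. Dab2 was at 59.8, 58.1 and 121 CPM and Clcn5 at 9.37, 12.4 and 11.3 CPM in the control, 15 min and 60 min tumor libraries, so these transcripts were present in a tissue in which the megalin and cubilin transcripts were at or near the level of single counts.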

How the data were processed

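Count data of 3 kidney and 3 tumor libraries were analysed, 1 per condition, grouped by the sample labels. The authors made the values with Cell Ranger 3.1.0 on mm10, aggregated the libraries at equal read depth, and deposited the unfiltered UMI counts as whole numbers. Aggregation discards reads from the deeper libraries, so relative depth is partly removed. Kept kidney cells had at least 200 and at most 3000 genes and at most 50% mitochondrial UMIs, following the study's methods. Doublets were removed only through the gene limit.

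Of 19 marker lists, the class list with the highest z-score gave the class of each kept cell, with a lead of 0.25 and at least 2 markers found. The proximal tubule needed 5 markers and 100 UMIs per 10000, thresholds chosen after the data had been seen. Segments S1, S2 and S3 were then separated with the same lead. Levels are summed UMIs scaled to a common total (CPM), and a lead of 0.5, Leiden clusters (resolution 0.5), a mitochondrial limit of 20%, no upper limits, denominators without mitochondrial UMIs and equal cell weights were tried as alternatives. A change was called past 2-fold, without a test. Named genes were the 5 members, pathway genes past the fold and at most 3 per group below it, and the 5 genes most like each member. The members and lists were chosen with earlier results of these data known. Of the reference genes for free RNA that had been chosen, 1 was left out and is not reported here, so the reference ranges rest on 6 genes. Coordinates came from GENCODE vM21 and RefSeq. The scripts were checked on simulated data and used Python 3.11.15, numpy 2.4.6, scipy 1.17.1, pandas 2.3.3, scanpy 1.11.5, igraph 0.11.9 and matplotlib 3.10.9.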

Additional observations from a re-analysis of the deposited data

Results flagged for a closer look

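Dab2 differed from the control in opposite directions in the 2 platform intervals. In the whole proximal tubule gate its log2 ratio was -0.31 at 15 min and 0.28 at 60 min, in S1 -0.18 and 0.16, and in cells without a segment -0.45 and 0.32, each beyond counting error. The medians over all genes compared in the whole gate were -0.24 and 0.01, with Dab2 at percentiles 38.0 and 79.6. In S1 the medians were -0.12 and 0.04. The typical gene was thus also below the control at 15 min. Each interval is 1 library, all ratios share the control library, and the difference between the intervals was not tested. Without the upper limits on a cell, the 15 min ratio of the whole gate was 0.07, and in cells with under 10% mitochondrial UMIs it was 0.37.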

How the results depend on the processing

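No gene of the 5 and none of the pathway list passed 2-fold under the alternatives applied to the whole proximal tubule gate. Within parts of the gate Lrp2 did so at 15 min in cells with under 10% mitochondrial UMIs (1.01). Amn did so at 15 min in cells without a segment (1.16). The share of all genes past 2-fold is not given for these parts. The median log2 ratio of the 5 genes at 15 min (0.46) was 0.61 without mitochondrial UMIs in the denominator, 0.79 with a mitochondrial limit of 20% and 0.73 without upper limits. At 60 min (0.57) it was 0.61, 0.72 and 0.46 under the same alternatives, and 0.65 with each cell weighted equally. The median of S1 over S3 in the control (0.63) was 0.30 with Leiden clusters, 0.33 with the limit of 20% and 0.92 without upper limits, and at 15 min (0.82) it was 0.57 with the limit of 20%. Of 244 log2 ratios recomputed for members, 232 kept the direction and 12 did not, among them Dab2 at 15 min and Amn between segments. Of all 286 recomputed values, 121 moved beyond the interval or spread of the reported value or, for shares of genes, by over 1.5 times. With no minimum level, 11.3% (15 min) and 13.0% (60 min) of all genes passed 2-fold. No paired analysis was possible because each condition had 1 library. The causes of these shifts were not tested. Low levels limit Clcn5 and Cubn most.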
